A study of Mus musculus with 18 samples.

Results

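The genes described here are the 10 that encode the receptor complex for bacterial lipopolysaccharide and its first signalling proteins: Tlr4, Ly96, Cd14, Lbp, Myd88, Tirap, Ticam1, Ticam2, Irak4 and Traf6. They were chosen by name, for the roles of their proteins, from the 21938 protein-coding genes of the GENCODE vM21 annotation of mm10. For each gene, every peak of 2 histone marks was taken in a window that added 5 kb before the gene body and 1 kb after it. In untreated bone marrow-derived macrophages (BMDM), 6 of the 10 genes carried an H3K27ac peak at the start in all 3 genotypes, against 18.3% of all protein-coding genes. In 8 of the 10, no H3K27me3 peak was found in any genotype, against 55.5% of all. Lbp and Traf6 were the exceptions, with H3K27me3 at or past the 3′ end of Lbp in WT and mdx, and upstream of Traf6 in all 3 genotypes. Each of the 2 had H3K27ac at the start in 1 genotype alone, with 6 reads, and Tirap and Ticam1 had none there in any genotype.

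Lipopolysaccharide is handed from LBP, a serum protein made mainly in the liver, to CD14 on the macrophage surface, and from CD14 to the complex of TLR4 with its co-receptor MD-2, the product of Ly96. The engaged receptor recruits adaptor pairs. TIRAP brings in MyD88, which assembles with the kinase IRAK4 and leads to the ubiquitin ligase TRAF6 and NF-κB, and TRAM, the product of Ticam2, brings in TRIF, the product of Ticam1, which leads to interferon genes. H3K27ac is an acetyl mark found at active promoters and enhancers. H3K27me3 is the mark laid down by Polycomb repressive complex 2 and is classically linked to silenced genes.

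The study asked how BMDM from dystrophic mice differ in these marks from those of healthy mice, and what the loss of TLR4 does to that. There were 3 genotypes, all from untreated primary cells of male mice. WT mice were labelled C57BL6, mdx mice, which lack dystrophin, were labelled Dmdmdx-4Cv, and mdxTLR4-/- mice, which lack dystrophin and TLR4, were labelled mTLR4 with the strain Bl6/Bl10, so the strain label differs along with the genotype, although the study's methods name C57BL/6J as the background of the WT, mdx and TLR4-/- mice. The 18 libraries comprised 2 H3K27me3 libraries and 2 input libraries per genotype, 2 H3K27ac libraries each for WT and mdx, 1 for mdxTLR4-/-, and 1 H3K27ac input whose title names no genotype. Labelled ages ran from 12 to 17 weeks over the H3K27me3 libraries and from 19 to 23 weeks over the H3K27ac libraries, with WT youngest and mdxTLR4-/- oldest for each mark. Over all 18 libraries the labelled age rises by exactly 1 week per library in the order they are listed, from 6 to 23 weeks, so whether these are the true ages is uncertain, and age as labelled cannot be told apart from genotype.

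Replicates were merged before peaks were called, leaving 1 peak list per mark and genotype, so no replicate spread could be computed and no test between genotypes was made. For H3K27ac, WT had 15665 peaks, mdx 12076 and mdxTLR4-/- 12493, whose median read counts were 10, 10 and 8. For H3K27me3 the peaks numbered 28143, 41780 and 36488 in the same order, and the medians were 123, 89 and 75 reads. The shallow H3K27ac lists set the precision of what follows, and the intervals given are exact 95% intervals that cover counting error only. Among markers of cell types, all 8 macrophage genes checked had an H3K27ac peak in the window in every list, and 8, 7 and 8 had one at the start in WT, mdx and mdxTLR4-/-. Of the 19 markers of T cells, B cells, neutrophils, erythroid cells and fibroblasts, 5, 3 and 3 had one in the window and none had one at the start. Col1a1 and Col1a2, collagen genes of fibroblasts, had H3K27ac in the window in all 3 lists, at 41, 7 and 30 reads and at 23, 13 and 22 reads. The others were Cd3d with 12 reads in mdx and 7 in mdxTLR4-/-, and Cd79a, Cd4 and Pdgfrb with 11, 9 and 8 reads in WT. The part of other cells in the values below was not tested, and fewer cells with a mark and less of the mark per cell cannot be told apart in bulk chromatin.

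RefSeq promoter sequences were held for 5 of the 10 genes, Irak4, Myd88, Ticam1, Tirap and Traf6, and the 250 bases before each RefSeq start are shown because the peaks divide them. The starts of Irak4 and Myd88 lay under an H3K27ac peak in all 3 lists, the start of Traf6 lay under one in mdxTLR4-/- only, and those of Ticam1 and Tirap lay under none. Each sequence reads 5′ to 3′ along the gene in GRCm38.p6. Capitals mark GAGGAA, the core of the binding site of PU.1, the master transcription factor of macrophages, where it occurred on the strand shown or, as its complement, on the other.
Irak4, chr15:94543410-94543659, plus strand: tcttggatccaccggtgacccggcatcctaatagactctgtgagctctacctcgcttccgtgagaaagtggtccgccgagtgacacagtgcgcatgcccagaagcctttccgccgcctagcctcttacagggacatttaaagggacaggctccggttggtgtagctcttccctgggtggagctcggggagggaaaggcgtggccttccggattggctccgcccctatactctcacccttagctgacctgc
Myd88, chr9:119340019-119340268, minus strand: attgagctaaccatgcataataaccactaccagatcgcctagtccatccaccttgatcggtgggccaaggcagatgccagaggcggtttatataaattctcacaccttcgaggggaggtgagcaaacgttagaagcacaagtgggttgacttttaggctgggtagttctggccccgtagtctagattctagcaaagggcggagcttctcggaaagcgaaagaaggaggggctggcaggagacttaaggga
Traf6, chr2:101678170-101678419, plus strand: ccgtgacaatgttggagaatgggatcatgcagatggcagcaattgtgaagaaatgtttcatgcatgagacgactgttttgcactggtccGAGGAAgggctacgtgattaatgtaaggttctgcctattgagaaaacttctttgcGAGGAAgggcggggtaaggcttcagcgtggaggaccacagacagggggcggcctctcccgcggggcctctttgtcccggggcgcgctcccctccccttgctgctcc
Ticam1, chr17:56276768-56277017, minus strand: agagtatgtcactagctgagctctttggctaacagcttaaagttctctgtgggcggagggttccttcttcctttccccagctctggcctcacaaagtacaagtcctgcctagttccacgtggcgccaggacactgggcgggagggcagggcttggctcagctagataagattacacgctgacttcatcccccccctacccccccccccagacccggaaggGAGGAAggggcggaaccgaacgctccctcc
Tirap, chr9:35199966-35200215, minus strand: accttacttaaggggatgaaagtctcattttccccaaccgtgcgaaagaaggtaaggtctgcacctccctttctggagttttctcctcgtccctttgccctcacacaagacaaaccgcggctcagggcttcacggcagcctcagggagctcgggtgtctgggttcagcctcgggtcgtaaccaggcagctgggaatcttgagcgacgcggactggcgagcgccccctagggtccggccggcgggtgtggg

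The Traf6 promoter held the PU.1 core 2 times, the Ticam1 promoter held it 1 time, and Irak4, Myd88 and both RefSeq starts of Tirap held none, against 23.3% of all 32851 promoters of the same length with at least 1 match on either strand. None of the 5 genes held the AP-1 site TGANTCA, the cyclic AMP response element TGACGTCA or the C/EBP site TTGCNNAA, which occurred in 6.75%, 1.55% and 9.56% of promoters. The promoters had 14 CG dinucleotides in Irak4, 9 in Myd88, 13 in Traf6, 9 in Ticam1 and 17 in the Tirap sequence shown, all above the median of 6 over all promoters. The count was above the median with and without H3K27ac over the start. The RefSeq start of Myd88 is 1393 bp from the GENCODE start used for the peak counts below, and lies inside the gene body by that annotation.

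The map of peaks along each gene shows both marks for all 10 genes.

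**Figure D1:**
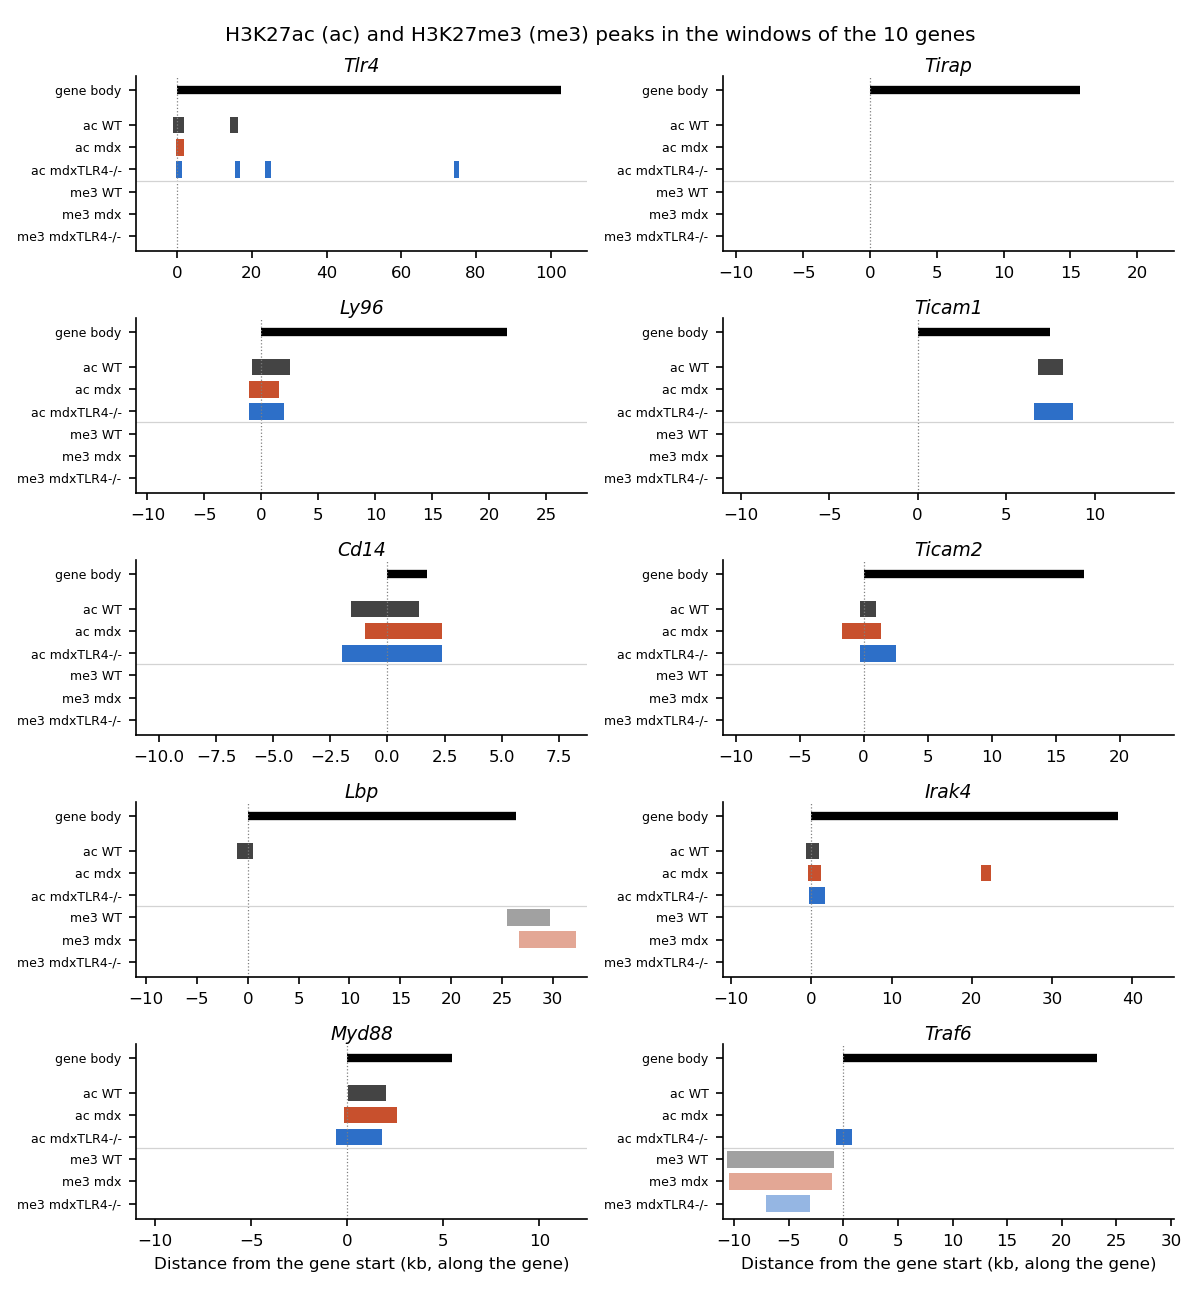
Peaks of H3K27ac (ac, solid) and H3K27me3 (me3, pale) in the windows of the 10 genes, drawn to scale as distance in kb from the gene start along the direction of transcription, 1 row per mark and genotype, with the gene body in black. H3K27ac sits at the starts of Tlr4, Ly96, Cd14, Myd88, Ticam2 and Irak4 in all 3 genotypes, while H3K27me3 appears only at and past the 3′ end of Lbp and upstream of Traf6.

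H3K27ac marked the starts of most of these genes. A peak within 1 kb of the start was present at 7 of the 10 genes in WT, 6 in mdx and 7 in mdxTLR4-/-, against 27.9%, 23.8% and 25.7% of all protein-coding genes. The 6 genes with a peak at the start in all 3 lists were Tlr4, Ly96, Cd14, Myd88, Ticam2 and Irak4, against 18.3% of all genes. With the whole window counted, 8, 6 and 8 of the 10 genes had H3K27ac, against 39.9%, 34.5% and 36.5%. The members were picked for their roles, not drawn from the annotation, and no test was made of these shares.

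H3K27me3 was found near few of them. A peak lay in the window of 2 genes in WT, 2 in mdx and 1 in mdxTLR4-/-, against 38.4%, 41.3% and 39% of all protein-coding genes. No list had a peak at 8 of the 10 genes, against 55.5% of all. On average 2.00%, 1.56% and 0.674% of a member's window was under H3K27me3 peaks in WT, mdx and mdxTLR4-/-, compared with 17.6%, 17.4% and 16.0% over all protein-coding genes, for which the median was 0 in each list.

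**Figure D2:**
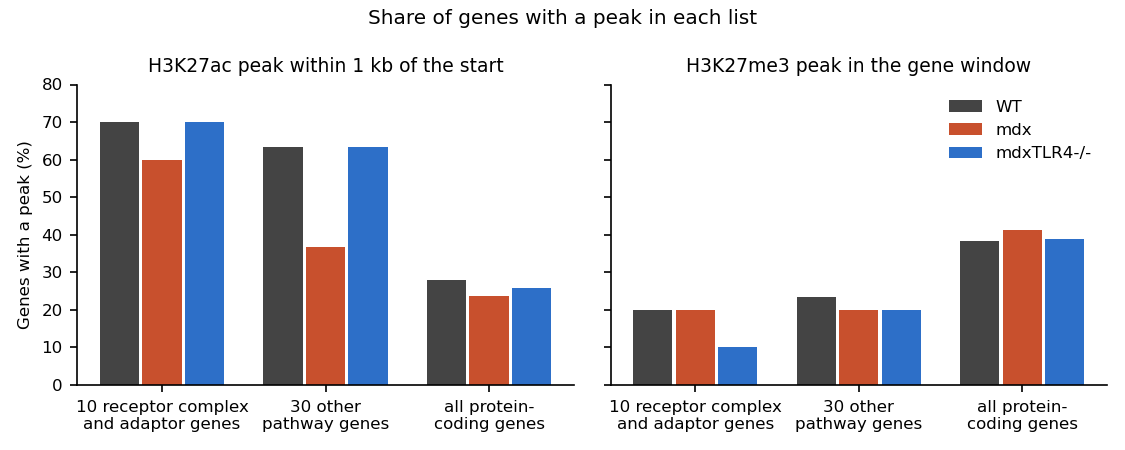
Percentage of genes with an H3K27ac peak within 1 kb of the start (left) and with an H3K27me3 peak in the gene window (right), as bars from 0, for the 10 receptor complex and adaptor genes, 30 other genes of the pathway and all protein-coding genes in WT, mdx and mdxTLR4-/-. The 10 genes reach 70%, 60% and 70% on the left and 20%, 20% and 10% on the right, above and below the bars for all genes.

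Among the receptor genes, Tlr4, the signalling receptor itself (mm10 chr4:66827584-66930284, plus strand), had an H3K27ac peak over exon 1 and the start in every list. It held 44 reads in 2800 bp in WT, 29 reads in 2000 bp in mdx and 28 reads in 1600 bp in mdxTLR4-/-, or 15.7 (11.4 to 21.1), 14.5 (9.71 to 20.8) and 17.5 (11.6 to 25.3) reads per kb. The 3 values lay within each other's intervals, and they were above 87.9%, 87.6% and 94.7% of the densities of peaks at gene starts in the same lists. Neither the labels nor the methods read here say which part of Tlr4 is removed in mdxTLR4-/- mice, so reads at the start do not check that label. Inside the gene, WT had a peak of 8 reads at chr4:66841601-66844000, which reached exon 3 of the 3-exon transcript. The mdxTLR4-/- list had 3 peaks of 5 reads each in the body, none touching an exon, and mdx had none there. Those counts are at or near the fewest reads of any H3K27ac peak, which was 5 in each list.

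Ly96, which encodes MD-2, the part of the complex that holds lipopolysaccharide (chr1:16688051-16709611, plus strand), had a dense H3K27ac peak over its start in every list. There were 59 reads for WT, 51 for mdx and 43 for mdxTLR4-/-, or 17.4 (13.2 to 22.4), 19.6 (14.6 to 25.8) and 14.3 (10.4 to 19.3) reads per kb. Its density stood above that of 91.0%, 95.6% and 89.8% of the start peaks of the 3 lists. Tlr4 and Ly96, whose products bind one another, were thus both in the upper part of each list.

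Cd14, the surface co-receptor that loads the complex (chr18:36725067-36726798, minus strand), had the highest H3K27ac density of the 10 genes in WT. The peak covered the start and reached both exons, with 67 reads in 3000 bp in WT, 38 in 3400 bp in mdx and 36 in 4400 bp in mdxTLR4-/-. The density was 22.3 (17.3 to 28.4) reads per kb in WT, above the intervals of 11.2 (7.91 to 15.3) in mdx and 8.18 (5.73 to 11.3) in mdxTLR4-/-, whereas the latter 2 intervals overlapped. Among start peaks, the density of Cd14 stood above 96.5% in WT, 74.8% in mdx and 57.2% in mdxTLR4-/-. By reads per peak, not divided by length, it stood above 96.4%, 91.4% and 93.3%.

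Lbp (chr2:158306493-158332852, plus strand) differed from the other receptor genes in both marks. An H3K27ac peak over its start was listed in WT only, with 6 reads in 1600 bp, a density above that of only 4.10% of WT start peaks. Scaled by the reads in peaks of each list, those 6 reads would correspond to 4.20 in mdx and 3.69 in mdxTLR4-/-. Both are below the fewest reads of a peak there, so even a level equal to WT could go unlisted at this depth. At its 3′ end, H3K27me3 covered 4200 bp with 102 reads in WT, from 852 bp inside the body and over exon 15. In mdx the peak covered 5600 bp with 145 reads and began past the end of the body. The mdxTLR4-/- list had no H3K27me3 peak there, where 90.1 reads would correspond to the WT count and where peaks of as few as 16 reads were listed. The window under the mark was 5.72% in WT, 2.01% in mdx and 0% in mdxTLR4-/-. A second H3K27me3 peak lay outside the window in every list, 6.09, 6.29 and 9.69 kb upstream of the start, with 158, 114 and 55 reads.

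Among the adaptors, Myd88 (chr9:119335934-119341411, minus strand), the hub of the NF-κB arm, had a low peak at its start in each list. The counts were 13 reads for WT, 17 for mdx and 11 for mdxTLR4-/-, or 6.5 (3.46 to 11.1), 6.07 (3.54 to 9.72) and 4.58 (2.29 to 8.20) reads per kb, with overlapping intervals. Each peak also covered the start of Acaa1a, an enzyme of peroxisomal fatty acid oxidation, so its reads cannot be given to Myd88 alone, and the WT peak stopped 11 bp inside the GENCODE start of Myd88.

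Ticam2 (chr18:46557291-46574533, minus strand), which encodes the bridge between TLR4 and TRIF, had similar read counts in peaks of different length. There were 11 reads in 1200 bp in WT, 12 in 3000 bp in mdx and 13 in 2800 bp in mdxTLR4-/-, giving 9.17 (4.58 to 16.4), 4.00 (2.07 to 6.99) and 4.64 (2.47 to 7.94) reads per kb. The density was highest in WT while the count was lowest there, and the intervals overlapped. The peaks overlapped the annotated span of Tmed7 as well, whose product is a cargo receptor of the secretory pathway.

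The remaining adaptors had no H3K27ac at the start in any list. Tirap (chr9:35184551-35200291, minus strand), the membrane-bound bridge to MyD88, had no peak of either mark in its window. Its nearest H3K27ac peak lay 9.51, 8.51 and 9.51 kb upstream of the start in WT, mdx and mdxTLR4-/-, with 45, 27 and 29 reads. Ticam1 (chr17:56269319-56276786, minus strand), which encodes TRIF, had H3K27ac at the opposite end, over exon 2 and past the gene end, with 9 reads in 1400 bp in WT and 10 reads in 2200 bp in mdxTLR4-/-. No such peak was listed in mdx, where the WT count would correspond to 6.29 reads and the fewest reads of a peak was 5.

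Irak4 (chr15:94543643-94581815, plus strand), the first kinase of the MyD88 complex, had a peak over exon 1 in each list. The counts were 30 reads in 1600 bp in WT, 20 in 1600 bp in mdx and 14 in 2000 bp in mdxTLR4-/-. Before scaling, the densities were 18.8 (12.7 to 26.8), 12.5 (7.64 to 19.3) and 7.00 (3.83 to 11.7) reads per kb. The WT and mdxTLR4-/- intervals of these unscaled densities did not overlap, and mdx lay between. Irak4 shares this stretch with the start of Pus7l, a pseudouridine synthase gene, which lay under the same peak in all 3 lists. A further peak of 6 reads lay in the body at chr15:94564801-94566000 in mdx only, over no exon of the gene.

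Traf6 (chr2:101678429-101701669, plus strand), the ubiquitin ligase on which the MyD88 arm converges, was the only member with H3K27me3 in all 3 lists, and the mark lay upstream of the gene, not on it. The peak had 275 reads in 9800 bp in WT, 344 in 9400 bp in mdx and 113 in 4000 bp in mdxTLR4-/-, or 28.1 (24.8 to 31.6), 36.6 (32.8 to 40.7) and 28.3 (23.3 to 34.0) reads per kb. It ended 0.829, 1.03 and 3.03 kb before the start, and 14.3%, 13.6% and 6.74% of the window was under the mark. The WT and mdx peaks reached beyond the window. With H3K27me3 of the same stretch outside the window added, mdxTLR4-/- had 173 reads in 7000 bp of peaks. H3K27ac at the start, over the promoter printed above with its pair of PU.1 cores, was listed in mdxTLR4-/- only, with 6 reads in 1400 bp, at 4.29 (1.57 to 9.33) reads per kb. Those 6 reads would correspond to 9.76 in WT and 6.82 in mdx, where peaks of 5 reads were listed.

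**Figure D3:**
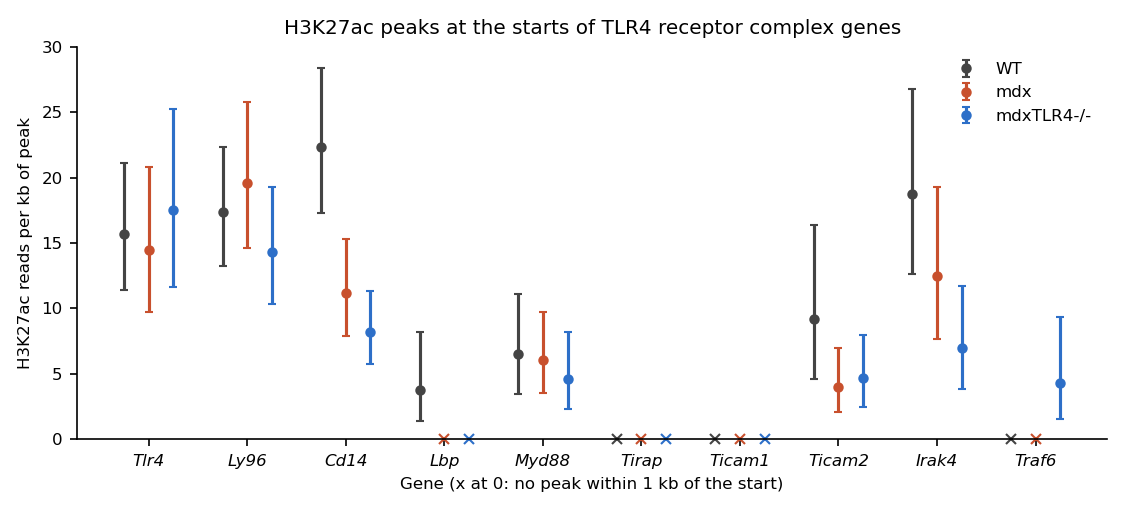
H3K27ac reads per kb of the peak within 1 kb of the start of each of the 10 genes in WT, mdx and mdxTLR4-/-, with exact 95% Poisson intervals as bars and a cross at 0 where no peak was listed. The densities are unscaled. Cd14 is at 22.3 in WT against 11.2 and 8.18, Irak4 is at 18.8, 12.5 and 7.00, and Tlr4 and Ly96 stay between 14.3 and 19.6.

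The 6 genes with a start peak in every list were then compared between genotypes as ratios of read density. From WT to mdx, 5 of the 6 ratios were below 1, with a median of 0.795 and a range of 0.436 to 1.13, beside a median of 0.870 over all 7921 regions shared by both lists. From WT to mdxTLR4-/-, 5 of 6 were below 1, with a median of 0.606 and a range of 0.366 to 1.11, beside 0.852 over 8273 regions. From mdx to mdxTLR4-/-, 4 of 6 were below 1, with a median of 0.743 beside 0.969 over 7162 regions. On the scale of reads in peaks described below, 3 of the 6 ratios to WT were above 1 in mdx and 3 in mdxTLR4-/-, with medians of 1.14 and 0.985. Since each list enters more than 1 of these comparisons, they are not independent of one another.

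Before scaling, densities at least 1.5 times lower than in WT were seen at 3 of the 6 genes in mdx (Cd14, Ticam2 and Irak4). In mdx, 29.2% of all shared regions were that much lower and 14.2% that much higher. Such lower densities were seen at the same 3 genes in mdxTLR4-/-, where 31.3% of regions were lower and 13.3% higher. Between mdxTLR4-/- and mdx 1 gene, Irak4, was that much lower, against 22.7% lower and 20% higher over all regions. Before scaling, no member was at least 1.5 times higher in any comparison. On the scale of reads in peaks described below, Cd14, Ticam2 and Irak4 were at 0.716, 0.624 and 0.953 of WT in mdx. In mdxTLR4-/- they were at 0.596, 0.824 and 0.607 of WT. On that scale Ly96 in mdx and Tlr4 in mdxTLR4-/- were more than 1.5 times higher than in WT, at 1.62 and 1.81.

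Before scaling, only Cd14 and Irak4 of the 6 genes had an H3K27ac density ratio whose counting interval lay away from 1. For Cd14 the ratio was 0.500 (0.327 to 0.756) from WT to mdx and 0.366 (0.237 to 0.557) from WT to mdxTLR4-/-. For Irak4 it was 0.373 (0.183 to 0.726) from WT to mdxTLR4-/-, with 0.667 (0.359 to 1.21) from WT to mdx. The ratios of Tlr4 were 0.923 (0.557 to 1.51), 1.11 (0.668 to 1.83) and, from mdx to mdxTLR4-/-, 1.21 (0.692 to 2.10), so that a difference of up to about these bounds in either direction could not be seen.

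The ratios depended on how the lists were put on 1 scale. When densities were scaled to the reads in peaks of each list, Cd14 gave 0.716 (0.468 to 1.08) in mdx and 0.596 (0.386 to 0.906) in mdxTLR4-/- against WT. Irak4 gave 0.953 (0.513 to 1.74) in mdx and 0.607 (0.297 to 1.18) in mdxTLR4-/-. On that scale Ly96 in mdx, at 1.62 (1.09 to 2.39), and Tlr4 in mdxTLR4-/-, at 1.81 (1.09 to 2.97), were above WT. With read counts in place of densities and the same scaling, Cd14 was at 0.811 (0.530 to 1.23) and 0.874 (0.566 to 1.33), Tlr4 in mdxTLR4-/- was at 1.03 (0.620 to 1.70), and 0 of the 6 genes had an interval away from 1 in any comparison. Ticam2, at 0.436 of the WT density in mdx and 0.506 in mdxTLR4-/-, was at 1.09 and 1.18 by read count without scaling, at 0.624 and 0.824 by scaled density, and at 1.56 and 1.92 by scaled read count. With densities scaled instead to the 1st percentile of each list or to the median of shared regions, Ly96 in mdx was at 1.13 and 1.30. Tlr4 in mdxTLR4-/- was then at 0.974 and 1.31 of WT. Cd14 was at 0.500 and 0.576 in mdx and at 0.321 and 0.430 in mdxTLR4-/-, and Irak4 at 0.327 and 0.438 in mdxTLR4-/-. The library depths are not known from the files, and H3K27ac in mdxTLR4-/- came from 1 library.

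**Figure D4:**
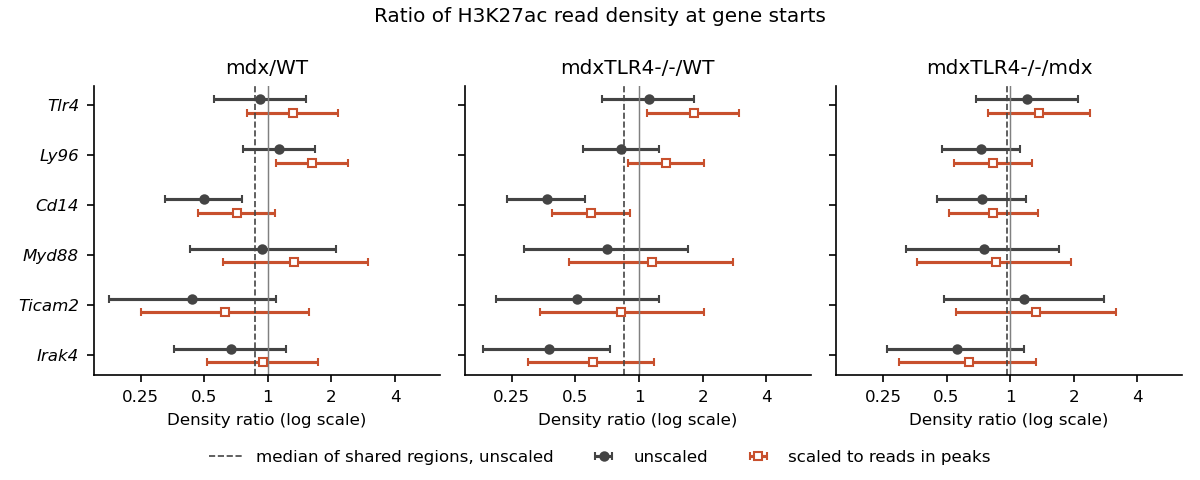
Ratio of H3K27ac read density between genotypes at the starts of the 6 genes with a peak in every list, on a log axis with exact 95% intervals, unscaled (filled) and scaled to the reads in peaks of each list (open), with the unscaled median of all shared regions as a dashed line. Cd14 lies at 0.500 and 0.366 of WT before scaling and at 0.716 and 0.596 after it, and the intervals of Myd88 and Ticam2 span 1 throughout.

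For H3K27me3, ratios were taken over merged regions that reach beyond the windows. At Lbp the mdx density was 1.27 (1.09 to 1.48) times that of WT, with 344 against 349 reads, and at Traf6 it was 1.30 (1.11 to 1.53) times, beside a median of 1.22 over all shared H3K27me3 regions. At Traf6 mdxTLR4-/- was at 0.881 (0.724 to 1.07) of WT, beside a median of 0.958, and at 0.675 (0.559 to 0.813) of mdx, beside 0.788. Set against the total reads in each list's peaks, these 4 became 1.04, 1.07, 0.997 and 0.936, each with an interval that included 1. By read count on that scale, where a shorter peak gives a lower value, Lbp in mdx was at 0.805 (0.692 to 0.937) of WT, and Traf6 was at 1.02 (0.869 to 1.20) in mdx and 0.712 (0.585 to 0.865) in mdxTLR4-/- against WT and at 0.697 (0.577 to 0.839) in mdxTLR4-/- against mdx. Away from these genes, the nearest H3K27me3 peak was 422 kb upstream of the start of Tlr4 in WT and 421 kb in mdx, 160, 130 and 130 kb from that of Ly96 in WT, mdx and mdxTLR4-/-, and between 23.2 and 86.1 kb from those of Cd14, Myd88, Tirap, Ticam1, Ticam2 and Irak4.

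The wider pathway was read from a list of 30 further genes of lipopolysaccharide handling, the MyD88 arm, the TRIF arm and brakes on the receptor. H3K27ac lay at the start of 19 genes in WT, 11 in mdx and 19 in mdxTLR4-/-, or 63.3%, 36.7% and 63.3%, beside 27.9%, 23.8% and 25.7% of all protein-coding genes. A start peak in all 3 lists was found at 9 genes, beside 18.3% of all. With the whole window counted, 21, 16 and 23 genes had H3K27ac, beside 39.9%, 34.5% and 36.5% of all. Of the genes with a start peak in WT but not in mdx, Aoah, Tab2, Ikbkb, Ikbkg and Ikbke kept a peak in the window in mdx. Ube2n, Peli1, Irf3 and Cyld had none there in mdx, and had 12, 9, 16 and 12 reads in WT. H3K27me3 lay in the window of 7, 6 and 6 genes, or 23.3%, 20% and 20%, beside 38.4%, 41.3% and 39% of all. None of the 12 genes of the MyD88 arm had H3K27me3 in any list, and among the members of that arm Myd88, Tirap and Irak4 had none while Traf6 had it in all 3. In the TRIF arm 1 of 5 genes had it in WT alone. This was Traf3, the ubiquitin ligase next to TRIF, with 0.892% of its window under the edge of a peak of 1390 reads that reached far beyond it, and with 15 reads of H3K27ac in mdx, 15 in mdxTLR4-/- and no peak in WT.

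The gene with the most WT H3K27ac reads in each role was Cd180, a TLR4-like receptor of B cells and macrophages, with 74, 64 and 56 reads in WT, mdx and mdxTLR4-/-. In the TRIF arm it was Tbk1, the kinase that activates IRF3, with 74, 45 and 51 reads. In the MyD88 arm it was Ikbkg, the regulatory subunit of the IκB kinase, with 66, 39 and 39 reads and a start peak in WT only. Among the brakes it was Socs1, an inhibitor of cytokine and receptor signalling, with 23, 27 and 19 reads. These counts are unscaled, and the reads in all H3K27ac peaks were 0.699 of the WT total in mdx and 0.615 in mdxTLR4-/-. Socs1 carried H3K27me3 too, over 59.1%, 46.2% and 18.3% of its window. In each list H3K27me3 was found at 4 of 6 brakes and at 2 of 7 genes of lipopolysaccharide handling, Bpi and Tril. The share over all protein-coding genes was 38.4%, 41.3% and 39% in WT, mdx and mdxTLR4-/-. The mean share of the window under the mark was 23.8%, 27.5% and 18.5% for the brakes, in the same order. It was 28.0%, 27.1% and 25% for lipopolysaccharide handling, where the median was 0 in each list. Over all protein-coding genes the mean was 17.6%, 17.4% and 16.0%.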

How the data were processed

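Native ChIP-seq of H3K27me3 and H3K27ac was performed by the authors on BMDM digested with micrococcal nuclease. Per the labels and the study's methods, reads were trimmed with cutadapt 1.15, aligned to mm10 with Bowtie2 2.3.4, merged over replicates, and called into peaks with SICER 2.0 against input (window 200 bp, gap 600 bp, false discovery rate 0.01). The deposited lists give each peak with its read count, unscaled. Peaks are whole steps of 200 bp, so edges are no finer than that. Signal tracks were not used here.

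Starts were converted to 1-based positions. A peak counted where it overlapped a gene's window by 1 bp. Read density was reads per kb of peak. Ratios were taken over regions formed by overlapping peaks of both lists, with exact Clopper-Pearson intervals of the read split and exact Poisson intervals of single counts, using Python 3.11.15, numpy 2.4.6, scipy 1.17.1 and pandas 2.3.3. The code was tested on simulated lists. Samples were grouped by title and strain label. Alternatives were windows, peak filters, list lengths and scalings.

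The members, the pathway and marker lists and the rules were chosen with earlier results of these data known. Of the pathway list, genes were named whose H3K27me3 presence differed between lists, and per role the gene with the most WT H3K27ac reads.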

Additional observations from a re-analysis of the deposited data

How the results depend on the processing

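The count of members with H3K27me3 moved with the window. With the gene body alone it was 1 in WT, 0 in mdx and 0 in mdxTLR4-/-, with the 5 kb upstream alone it was 1 in WT and 1 in mdx, and with peaks of at least 1.5 times the 1st percentile of density it was 1 in mdx. The other 45 of 51 recounts of members and all 30 recounts of the pathway list stayed within 1.5 times. The recounts of the pathway list were of peaks in the window, and its counts of start peaks were not recounted. The share of the window under H3K27me3 fell to 0% in 5 of 18 recounts. With the gene body alone it was 0% at Traf6 in all 3 lists and at Lbp in mdx, where it was also 0% with the stricter density. At Lbp in WT it was 3.23% with the gene body alone, against 5.72% with the full window. The density ratio of H3K27me3 between mdx and WT at Lbp turned from above to below 1 when reads were not divided by peak length, at 0.986, and at 0.805 when those reads were also scaled to the reads in peaks. The peaks of that region covered 11000 bp in mdx and 14200 bp in WT. Of 144 recomputed ratios 122 stayed within their counting interval. These include recounts that left the ratio unchanged. They also include large shifts where few reads made the interval wide, as at the start of Tlr4 in mdxTLR4-/- against WT, from 1.11 to 1.81. The count of 122 therefore says little about how stable the ratios are. Merging peaks up to 600 bp apart changed no ratio, and scaling to the 1st percentile changed none for H3K27ac between mdx and WT. The ratios of reads, with and without scaling, and the use of all protein-coding transcript starts were chosen after seeing the data.

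No paired analysis was possible because replicates were merged before peak calling, and for the same reason leaving out each replicate was not run. H3K27ac peaks of 5 to 13 reads are too shallow to order the genotypes. Library depth is unknown, so lower depth and less of the mark cannot be told apart. Absence from a list means no called peak, not absence of the mark.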
